A study of Drosophila melanogaster with 7 samples.

Results

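The sex determination cascade of *Drosophila melanogaster* was represented by 5 genes, Sxl, tra, tra2, dsx and fru, chosen by name from the 17684 genes on the main chromosome arms. CLAMP peaks were counted at a gene when they overlapped its body or the 500 bp to either side, a stretch called the gene window here. Binding was mapped by CUT&RUN on unfixed cells, in which a nuclease tethered to an antibody cuts out the DNA around bound protein for sequencing. The groups were S2, a male embryonic line, with 3 libraries made with rabbit anti-CLAMP; Kc, a female embryonic line, with 2 such libraries; and 1 library with rabbit IgG, the control antibody, from each line. All libraries came from untreated cells grown at 25 °C, and the submitters left out another Kc CLAMP sample that gave too little material. Each sex is represented by a single cell line, so a difference between the lines cannot be told apart from a difference between the sexes. CLAMP, a protein with zinc fingers, recognises GA-rich DNA, and the series asked where its binding differs between the 2 lines.

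Sex in the fly is set by a chain of splicing choices. Sxl, an RNA-binding protein made in females, keeps its own production going through splicing of its own RNA and directs the splicing of tra RNA so that functional Tra protein is made. Tra and its partner Tra2, an RNA-binding protein present in both sexes, then direct the female splicing of dsx and fru, which otherwise follow the male form. The dsx gene encodes a DM-domain transcription factor with a male and a female form that shapes somatic sex. The fru gene encodes BTB zinc-finger transcription factors, whose male forms are needed for courtship. The peak lists show binding to the DNA of these genes and hold no measure of their RNA or splicing.

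Each of the 5 genes had a peak from some CLAMP library, as did 48.2% of all genes and 87.0% of the 1038 genes of 20 kb or more. The genes differed widely in how many libraries held them. Only fru, the longest at 131314 bp, held peaks in all 5 CLAMP libraries, as did 6.28% of all genes and 35.4% of the genes of 20 kb or more. Sxl and dsx held peaks in every CLAMP library except S2 replicate 3, a pattern shown by 7.29% of all genes and 15.4% of those of 20 kb or more. The tra2 gene held peaks in 4 CLAMP libraries, but at different places, and tra in 2. Of all genes, 15.1% held peaks in 4 or 5 CLAMP libraries. The number of the 5 genes that held a peak was 5, 3 and 2 in S2 replicates 1 to 3, with 5 and 4 in Kc replicates 1 and 2. The mean was 3.33 ± 1.53 in S2 (SD, n = 3), against 4.5 ± 0.707 in Kc (SD, n = 2). The exact two-sided permutation test over the 5 libraries did not separate the lines (p = 0.5, smallest possible p 0.1). Of all genes, 33.1%, 23.9% and 15.4% held a peak in S2 replicates 1 to 3, with 26.0% and 25.9% in Kc replicates 1 and 2. With no flank the counts among the 5 genes were 4, 2 and 1 in S2, with 3 and 4 in Kc. With at least 50% of the peak in the window they were 4, 2 and 2 in S2, with 4 and 4 in Kc.

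The lists differ in length, and 1 library stood apart. S2 replicate 3 had 5535 peaks with 32.7% of them at a q-value of 0.0001 or less, against 8769 to 9832 peaks and 53.7% to 76.4% in the other CLAMP libraries. Its list is named with another internal label than its title gives, and the library was assigned by the title. S2 IgG had 1165 peaks and Kc IgG 8615. Numbers of reads are not in the lists, so the depth is unknown, and a missing peak means only that none was called. What part the shorter list of S2 replicate 3 has in its missing peaks was not tested. No 2 lists shared more than 13 identical intervals. The lists hold no expression values, so the labelled lines were not checked against marker genes. Fold enrichments are the authors' values for each peak. They are given with their percentile by fold within the list they come from, since they are not comparable between libraries.

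Sxl, the master switch (X 7074550 to 7098053, 23504 bp), held its strongest CLAMP peaks close to its upper-coordinate end in both lines. The gene table used gives no strand, transcript starts or exons, so ends are named by coordinate. The merged region spanned X 7096884 to 7098045, inside the gene and ending 8 bp short of its upper end. Within it the strongest summit lay at X 7097372 in S2 replicate 1, 7097336 in S2 replicate 2, 7097380 in Kc replicate 1 and 7097390 in Kc replicate 2, so that the 4 libraries placed it within 54 bp of each other, 663 to 717 bp inside the gene end. Among the 2792 regions held by these 4 libraries genome-wide, the median spread of the strongest summit was 194 bp, and 80.2% had a wider spread than Sxl. The compared regions were not matched for width or for the number of summits. A second summit position, 126 to 166 bp inside the gene end, was also found by all 4 libraries and varied by 40 bp. Another, between them at 434 to 454 bp, was listed in S2 replicate 1 and Kc replicate 2, the libraries that had joined the whole stretch into a single peak.

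This Sxl peak was strong in both lines. Its fold was 7.02 in S2 replicate 1 and 5.04 in S2 replicate 2, and 3.33 in Kc replicate 1 and 5.93 in Kc replicate 2. Within their lists these values stood at percentiles 93.4, 85.0, 93.4 and 94.4. By p-value the peak ranked 937 of 8904 and 1843 of 8801 in S2, and 712 of 9832 and 564 of 8769 in Kc. It was therefore among the stronger peaks of all 4 lists, while S2 replicate 3 and both IgG libraries had no peak anywhere at Sxl. The next annotated gene beyond this end does not reach into the 500 bp flank.

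A second Sxl region, X 7095171 to 7095660, was called in Kc replicates 1 and 2 but in no other library. It lay inside the gene, 2393 bp below the upper end, and overlapped no other annotated gene. Its strongest summits, at X 7095508 in Kc replicate 1 and 7095451 in Kc replicate 2, were 57 bp apart. The percentile of its fold was 74.1 and 73.2 in these lists, and the −log10 q-value was 9.87 and 14.7, so both peaks remained at a q-value of 0.0001 or less. Kc replicate 1 alone held 2 further peaks in the middle of the gene, at X 7084557 to 7084767 and X 7085364 to 7085563, with −log10 q-values of 2.29 and 3.19. The lower 10007 bp of the gene, 42.6% of its length, held no peak in any library.

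**Figure D1:**
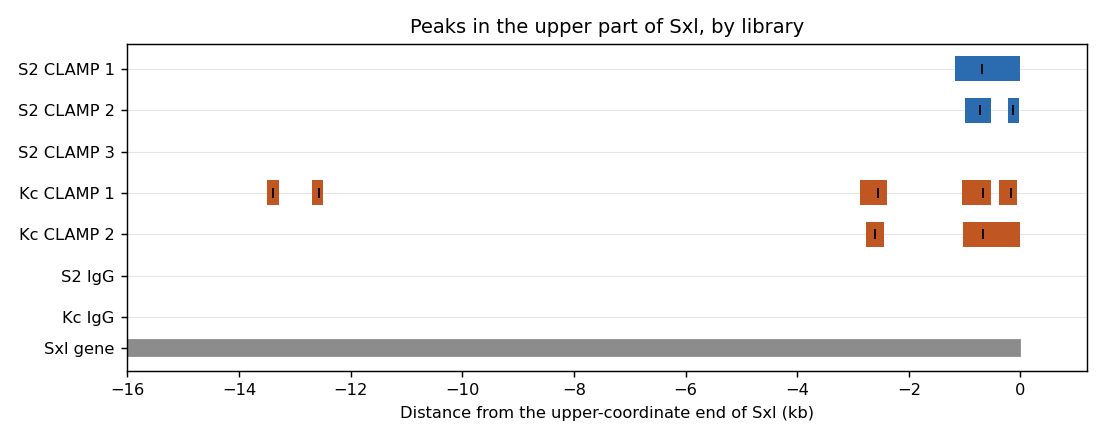
Peaks called in the upper 16 kb of Sxl in each of the 7 libraries, with the distance from the upper-coordinate end of the gene in kb on the horizontal axis; bars are peaks, ticks are their strongest summits and the grey bar is the gene. Peaks at the gene end appear in 4 CLAMP libraries with strongest summits 663 to 717 bp inside the gene, and the block near 2.5 kb appears in the 2 Kc libraries only.

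With all listed peaks counted, coverage of Sxl was larger in both Kc libraries than in any S2 library. Peaks covered 4.74%, 2.80% and 0% of the gene window in S2 replicates 1 to 3, with 7.05% and 5.44% in Kc replicates 1 and 2. Every Kc library lay above every S2 library, which was also the case for 4.14% of all genes and 13.4% of genes of 20 kb or more. The mean was 2.51% ± 2.38 in S2 (SD, n = 3), against 6.24% ± 1.14 in Kc (SD, n = 2), a difference of -3.73 points. The two-sided exact permutation test did not separate the lines (p = 0.2, adjusted p = 1 by the Benjamini-Hochberg method over 17684 genes). The separation rested on 3 weak peaks of Kc replicate 1. With a q-value of 0.0001 or less, or with equally long lists, that library fell to 4.10%, below S2 replicate 1 at 4.74%, and the difference was -2.26 points (exact permutation p = 0.4). Without S2 replicate 3, which had no Sxl peak, the difference was -2.48 points. In the same permutation test no gene could reach an adjusted p of 0.05, because the smallest possible unadjusted p was 0.1. Of the 17684 genes, 3.53% reached that value. No call between the lines was therefore possible for any gene, and an adjusted p given here does not show that the lines are alike.

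The tra gene (3L 16590059 to 16591050, 992 bp), whose product exists as full-length protein only in females, showed weak peaks in 1 library of each line. They lay across the upper end of the gene, at 3L 16590881 to 16591269 in S2 replicate 1 and 3L 16590946 to 16591189 in Kc replicate 1, with summits 34 and 19 bp beyond the gene. The summits were 15 bp apart and lay in the 156 bp between tra and spd-2, a centrosome gene; the S2 peak also reached into spd-2. The folds were 1.93 and 2.03, at percentiles 24.0 and 46.3 of their lists, and the −log10 q-values were 2.89 and 2.88. Neither peak met a q-value of 0.0001. Coverage of the tra window was 19.5%, 0% and 0% in S2 and 12.2% and 0% in Kc, so the lines overlapped fully (exact two-sided permutation p = 1, adjusted p = 1). No IgG peak was called at tra.

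The tra2 gene (2R 14602004 to 14604337, 2334 bp), which encodes the RNA-binding partner of Tra, had peaks in 4 CLAMP libraries at 3 separate places. One region, 2R 14603900 to 14604332, lay inside the gene at its upper end and was held by S2 replicate 1, with a fold of 2.74 at percentile 58.9, and by Kc replicate 2, with a fold of 2.31 at percentile 52.1. The summits of the 2 libraries were 193 bp apart. A second region, 2R 14604592 to 14604950, lay beyond that end within the neighbouring gene CG12868, and was held by S2 replicate 1 (fold 2.46, percentile 50.6) and Kc replicate 1 (fold 1.71, percentile 12.9). The last, 2R 14601570 to 14601769, lay below the gene within Blos1, a gene for a lysosome-related organelle subunit, and was held by S2 replicate 3 alone (fold 2.03, percentile 39.8). Thus the only peaks inside tra2 were those of S2 replicate 1 and Kc replicate 2.

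Coverage of the tra2 window was 16.4%, 0% and 6.0% in S2 and 7.38% and 7.41% in Kc. The S2 values spread to either side of the Kc values, and the means of 7.47% ± 8.30 (SD, n = 3) and 7.39% ± 0.0212 (SD, n = 2) were not separated by the test (exact two-sided permutation p = 1, adjusted p = 1). Without S2 replicate 1 the difference turned from 0.0750 to -4.39 points. No IgG peak was called at tra2.

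The dsx gene (3R 7924323 to 7967408, 43086 bp), the somatic endpoint of the cascade, carried its recurrent peak outside the annotated gene. The region at 3R 7967690 to 7968341 began 282 bp beyond the upper end and overlapped no other gene of the table. Its summits lay at 3R 7967976 and 7967997 in S2 replicates 1 and 2 and at 7967988 and 7967981 in Kc replicates 1 and 2, that is 568 to 589 bp beyond the gene. The 4 libraries placed the summit within 21 bp, and 94.6% of the regions they shared genome-wide, not matched for width or number of summits, had a wider spread. The fold of the replicates differed within each line, with 11.3 and 2.68 in S2 replicates 1 and 2, 2.56 in Kc replicate 1 and 7.19 in Kc replicate 2. The percentiles were 98.9 and 60.2 in S2 and 80.1 and 96.5 in Kc, and the peak ranked 394 by p-value in S2 replicate 1 and 572 in Kc replicate 2, against 4244 in S2 replicate 2 and 3298 in Kc replicate 1. S2 replicate 3 had no peak there.

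Inside dsx almost nothing was called. Kc replicate 2 had a 200 bp peak at 3R 7964798 to 7964997 (fold 2.26, percentile 49.0), and the lower 40475 bp of the gene, 93.9% of its length, held no CLAMP peak. Kc IgG had a weak peak of its own at 3R 7959800 to 7960027 (fold 1.86, −log10 q-value 2.03), away from the CLAMP peaks. Coverage of the dsx window, which ends before the summits of the recurrent peak and so cuts it short, was 0.497%, 0.172% and 0% in S2, 0.243% and 0.694% in Kc, and 0.517% in Kc IgG. The lines overlapped (exact two-sided permutation p = 0.4, adjusted p = 1). With a flank of 2000 bp, which takes in the whole recurrent peak, coverage was 1.38%, 0.811% and 0% in S2, against 0.796% and 1.25% in Kc, and the lines overlapped again (exact permutation p = 0.8).

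**Figure D2:**
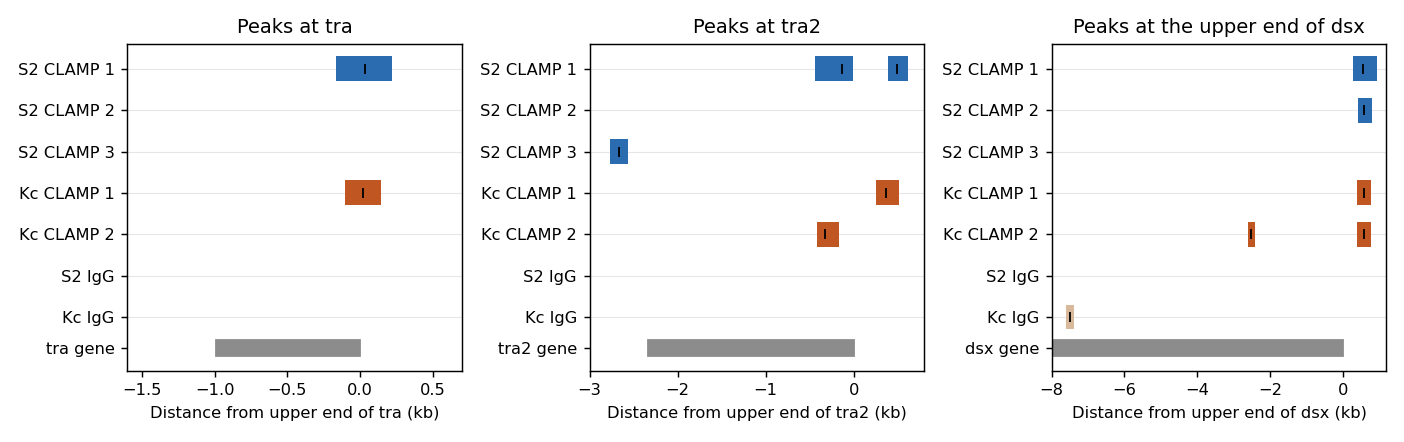
Peaks called at tra, tra2 and the upper end of dsx in each of the 7 libraries, with the distance from the upper-coordinate end of each gene in kb on the horizontal axes; bars are peaks, ticks are strongest summits and grey bars are the genes. The dsx summits of 4 CLAMP libraries line up 568 to 589 bp beyond the gene, while the tra2 peaks fall at 3 places.

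The fru gene (3R 18414273 to 18545586) carried the most peaks, all in its lower-coordinate part. It held 10, 10 and 4 peaks in S2 replicates 1 to 3, with 18 and 8 in Kc replicates 1 and 2, which merged into 21 regions. Of these, 13 were held by a single library, 5 of them in S2 and 8 in Kc, and 5 by 4 or 5 libraries. The upper 63470 bp of the gene, 48.3% of its length, held no peak in any of the 7 libraries. No other gene of the table overlapped the fru window.

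Held by all 5 CLAMP libraries were 2 fru regions. A merged region counted as held by a library when any peak of that library overlapped it, wherever the summit lay. The first, 3R 18447187 to 18449512, began 32914 bp above the lower end of the gene and was 2326 bp wide. Its strongest peak had a fold of 5.97, 6.14 and 2.83 in S2 replicates 1 to 3, with 2.64 and 4.38 in Kc replicates 1 and 2, at percentiles 90.4, 89.5, 89.1, 82.8 and 88.9. Its strongest summits spread over 1456 bp among the 4 libraries other than S2 replicate 3, and 2.76% of the compared regions had a wider spread. The summit of S2 replicate 1 (3R 18447444), S2 replicate 2 (18447446) and Kc replicate 2 (18447433) fell within 13 bp, and Kc replicate 1 listed a summit at 18447544 there, but its strongest was at 18448889. The strongest summit of S2 replicate 3 lay at 18448649. The second, 3R 18480521 to 18482116, is the last region before the stretch without peaks. Its strongest peak had a fold of 6.77, 9.86 and 2.54 in S2, against 2.75 and 4.02 in Kc, at percentiles 92.8, 95.9, 79.9, 85.5 and 86.6. In S2 replicates 1 and 2 its strongest summit fell on the same base, 3R 18480893. It lay at 18480854 and 18480780 in Kc replicates 1 and 2 and at 18480648 in S2 replicate 3, a range of 245 bp. Without S2 replicate 3 the range was 113 bp, and 62.9% of the compared regions had a wider spread.

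These 2 regions thus stood in the upper part of all 5 lists by fold. The regions held by every CLAMP library except S2 replicate 3 were at 3R 18436851 to 18437624, 18450127 to 18450681 and 18473781 to 18474940. In the first of these the folds ran from 2.24 to 2.77 and the percentiles from 48.3 to 69.0. In the second the folds ran from 2.06 to 3.54 and the percentiles from 49.6 to 78.2. In the third the folds ran from 3.27 to 5.61, and it was the strongest fru region of Kc replicate 1 by p-value. In the third, the percentiles were 87.5 and 84.8 in S2 replicates 1 and 2, against 92.9 and 93.5 in Kc. The strongest summits spread over 63 bp in the first, 166 bp in the second and 380 bp in the third. Of the compared regions, 77.0%, 53.6% and 26.8% had a wider spread than these.

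Of the fru regions held by more than 1 library, 2 came from a single line. The region at 3R 18473453 to 18473733 was called by the Kc libraries alone, with summits 6 bp apart. Its percentile by fold was 83.9 in Kc replicate 1 and 27.1 in Kc replicate 2, where its −log10 q-value was 3.23. It lay 47 bp below the region at 3R 18473781 to 18474940, which S2 replicates 1 and 2 also held. In the other direction, 3R 18479165 to 18479648 was found with S2 replicates 1 and 2 only, through 2 peaks whose strongest summits were 214 bp apart, with −log10 q-values of 3.63 and 19.9. The region at 3R 18428879 to 18429227 was present with S2 replicates 1 and 2 and with Kc replicate 1, and the 2 S2 summits there were 2 bp apart.

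Both peaks of control IgG at fru came from S2 and lay apart from CLAMP. They were at 3R 18414733 to 18415108, 715 bp inside the lower end by summit, with a fold of 16.8, and at 3R 18419401 to 18419774 with a fold of 11.1. Within the S2 IgG list these folds stood at percentiles 62.9 and 59.7. No CLAMP library had a peak overlapping either. Kc IgG had no peak at fru, although 20.2% of all genes and 66.2% of genes of 20 kb or more did in that library. For S2 IgG these shares were 3.47% and 27.2%.

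**Figure D3:**
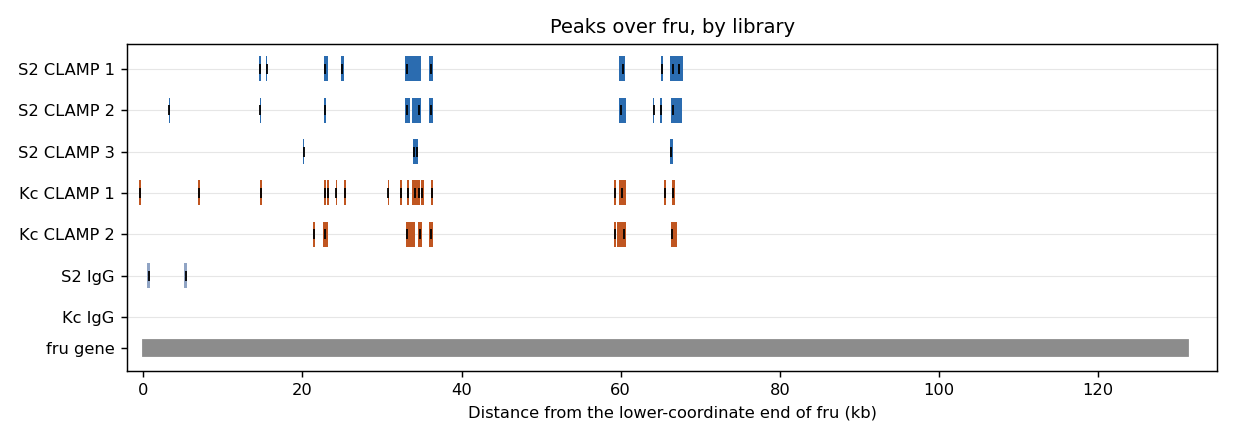
Peaks called over fru in each of the 7 libraries, with the distance from the lower-coordinate end of the gene in kb on the horizontal axis; bars are peaks, ticks are strongest summits and the grey bar is the gene. CLAMP peaks gather in separate blocks in the lower part, the upper 63.5 kb is empty in all libraries, and the S2 IgG peaks near the lower end match no CLAMP peak.

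Coverage of the fru window was 4.90%, 4.28% and 0.754% in S2 and 4.40% and 3.92% in Kc. S2 IgG covered 0.567% of it and Kc IgG 0%. The Kc values lay within the range of the S2 values, and the means of 3.31% ± 2.24 (SD, n = 3) and 4.16% ± 0.343 (SD, n = 2) were not separated by the test (exact two-sided permutation p = 0.9, adjusted p = 1). Without S2 replicate 3 the difference turned from -0.849 to 0.430 points.

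Placed in order by mean coverage over the 5 CLAMP libraries, the genes ran tra2 at 7.44% ± 5.87, tra at 6.36% ± 9.08, Sxl at 4.0% ± 2.71, fru at 3.65% ± 1.66 and dsx at 0.321% ± 0.274 (SD, n = 5 each). The ranges of neighbours in this order overlapped for tra2, tra, Sxl and fru. Those of fru (0.754% to 4.90%) and dsx (0% to 0.694%) did not, in windows that cut the recurrent dsx peak short. With a flank of 2000 bp these ranges overlapped, since fru had 0.738% in S2 replicate 3 and dsx 1.38% in S2 replicate 1. Within each CLAMP library fru still lay above dsx. The order differed between the lines: by the line means Sxl (2.51%) lay below fru (3.31%) in S2 and above tra in Kc (6.24% against 6.12%). The place of tra rested on the 2 weak peaks, and its coverage was 0% in every library at a q-value of 0.0001 or less. Coverage is a share of the window, so a single peak weighs more at the short genes tra and tra2.

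**Figure D4:**
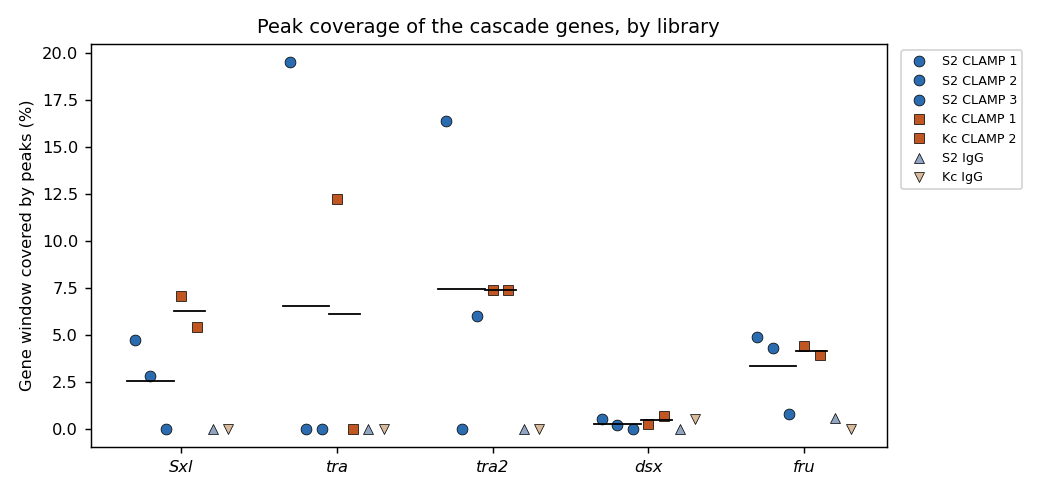
Percent of each gene window covered by peaks (vertical axis) in each of the 7 libraries, by gene, with horizontal lines at the means of the 3 S2 and the 2 Kc CLAMP libraries. At Sxl the Kc libraries, at 7.05% and 5.44%, lie above all S2 libraries with all listed peaks counted, though not at a q-value of 0.0001 or less, and at the other 4 genes the lines overlap.

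Over the 5 windows together, 206230 bp, CLAMP peaks covered 4.27%, 3.12% and 0.581% in S2 and 3.95% and 3.43% in Kc. The IgG libraries covered 0.364% in S2 and 0.111% in Kc. Every CLAMP library lay above the IgG library of its line, a comparison without a test because each line had 1 IgG library. The mean difference from IgG was 2.29 points in S2, or 1.48 without S2 replicate 1, and 3.58 points in Kc. Averaged over all genes, each gene weighing the same, coverage was 5.08%, 3.46% and 1.17% in S2 and 3.11% and 3.28% in Kc. For IgG this average was 0.229% in S2 and 1.66% in Kc. CLAMP above the IgG of its line was thus not particular to the 5 genes. The density over the 5 windows was 7.27, 6.30 and 2.42 peaks per 100 kb in S2 and 12.6 and 6.30 in Kc. Over the windows of all genes it was 7.43, 6.48, 3.76, 7.92 and 6.92. With all listed peaks counted, Kc replicate 1 was thus the only CLAMP library with a higher density at the cascade genes than at all genes. In that library 18 of the 26 peaks lay at fru. Its density at the cascade genes fell to 7.27 with a q-value of 0.0001 or less and to 7.76 with equally long lists. The density over all genes under these settings is not given. For Kc IgG the density was 0.485 at the cascade genes and 5.99 at all genes. S2 IgG went the other way, with 0.970 at the cascade genes, from 2 peaks, and 0.742 at all genes. The mean density was 5.33 ± 2.57 in S2 (SD, n = 3), against 9.46 ± 4.46 in Kc (SD, n = 2), and the test did not separate the lines (exact two-sided permutation p = 0.5). The difference of -4.12 was -0.970 without Kc replicate 1, -7.27 without Kc replicate 2 and -2.67 without S2 replicate 3.

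The CLAMP peaks merged into 31 regions at the 5 genes. A single library held 54.8% of them, against 57.8% of the 19039 regions of the genome, and 4 or 5 libraries held 22.6%, against 16.4%. Kc-only regions, held by both Kc and no S2 library, numbered 2 (6.45%, against 4.03% of all regions), 1 each at Sxl and fru. Regions shared by all 5 numbered 2 (6.45%, against 6.57%), both at fru, and none was held by every S2 library and absent from Kc, against 1.93% of all regions. No region at the 5 genes overlapped an IgG peak, while 14.5% of all regions did. Without S2 replicate 3 the regions held by all remaining CLAMP libraries numbered 7, 5 at fru and 1 each at Sxl and dsx, and 1 region was S2-only. Of the 19039 regions of the genome, merged with S2 replicate 3 included, 2792 were held by these 4 libraries. No share of all regions is given for S2-only regions under this setting, so these counts are not read as a trait of the 5 genes.

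Few of the strongest summits lay within 500 bp of an end of their gene. The share was 20%, 7.69% and 20% in S2 and 15.4% and 7.69% in Kc (means 15.9% ± 7.11 and 11.5% ± 5.44, SD, n = 3 and 2, exact two-sided permutation p = 0.6). The strongest summits of Sxl, 663 to 717 bp inside the gene end, and of dsx, 568 to 589 bp beyond it, lay outside this limit. The weaker Sxl position at 126 to 166 bp lay within it, but was counted only in S2 replicate 2 and Kc replicate 1, where it was a separate peak. The share also depends on gene length. Any summit inside tra, at 992 bp, is within 500 bp of an end, while most peaks lay at fru, at 131314 bp. No share over all genes is given beside it.

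The genes with the most similar coverage over the 7 libraries, by the smallest Euclidean distance between the 7 percentages, were hdly (distance 1.13 points) and CG6006 (1.54) for Sxl, Boot and CG7168 (2.11 each) for tra, kek4 (3.45) and alt (5.69) for tra2, kn (0.566) and wat (0.615) for dsx, and lilli (0.903) and br (1.30) for fru. For lilli the coverage was 4.47%, 4.42% and 0.881% in S2, 4.69% and 4.40% in Kc, and 0.533% and 0.537% in S2 and Kc IgG. For wat it was 0% in S2 replicates 1 to 3 and Kc replicate 1, 0.767% in Kc replicate 2 and 0.711% in Kc IgG. At values as low as those of dsx, a small distance thus does not mean that the same libraries held peaks.

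Genes around the cascade ranged from no CLAMP peak to peaks in every library. Among 10 genes acting upstream of Sxl, 6 (60%) had a peak from some CLAMP library, against 48.2% of all genes. Peaks from all 5 were held by 1 (10%, against 6.28% of all genes), namely emc, which encodes an inhibitor of helix-loop-helix factors. Its coverage was 11.7%, 14.5% and 8.31% in S2 and 13.5% and 11% in Kc, and no IgG peak was called. Of the X-linked signal elements that start the cascade in females, sisA and upd1 had a peak in Kc replicate 1 only, and sc and run had no CLAMP peak, although run had a peak in S2 IgG.

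Among 9 genes for splicing cofactors, 7 (77.8%) held a peak and 2 (22.2%) did so in all 5 libraries, against 48.2% and 6.28% of all genes. Those 2 were Mettl3, the catalytic subunit of the m6A RNA methyltransferase, and Ythdc1, the nuclear reader of m6A, which takes part in Sxl splicing. The strongest fold at Ythdc1 was 12.6, 18.9 and 3.32 in S2 and 2.94 and 7.15 in Kc. Kc IgG had a peak at Ythdc1 too, covering 6.99% of its window, against 5.64% to 11.9% in the CLAMP libraries.

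Among 9 targets and partners, 4 (44.4%) held a peak, against 48.2% of all genes. In all 5 libraries 2 did so (22.2%, against 6.28% of all genes), bab1 and bab2, the paired BTB genes of abdominal pigmentation that dsx regulates. At bab1 the number of peaks was 6, 5 and 5 in S2 and 20 and 13 in Kc, and coverage was 4.44%, 3.00% and 1.84% in S2 and 10.0% and 9.38% in Kc. The lines did not overlap there, as at bab2 (1.65%, 1.15% and 1.36% against 4.19% and 1.84%). Kc IgG, however, had 8 peaks at bab1 and 4 at bab2, covering 5.48% and 3.36%, while S2 IgG covered 0.307% and 0%. The remaining gene without overlap was Yp3, a yolk protein gene whose expression dsx controls in the female fat body, with peaks in the 2 Kc libraries (11.5% and 0.933% of its window) and none in S2, a pattern of 1.54% of all genes. Yp3 also had a Kc IgG peak covering 6.66%. Every Kc library above every S2 library was found for 4.14% of all genes and for 13.4% of genes of 20 kb or more, among them bab1 and bab2. The adjusted p was 1 for all 3 (exact two-sided permutation test, Benjamini-Hochberg over 17684 genes). No CLAMP peak was called at msl-2, the dosage compensation gene that Sxl represses. In total 17 of the 28 genes (60.7%) held a CLAMP peak and 5 (17.9%) held 1 in every CLAMP library, against 48.2% and 6.28% of all genes. For genes of 20 kb or more, which include bab1 and bab2, these shares were 87.0% and 35.4%.

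**Figure D5:**
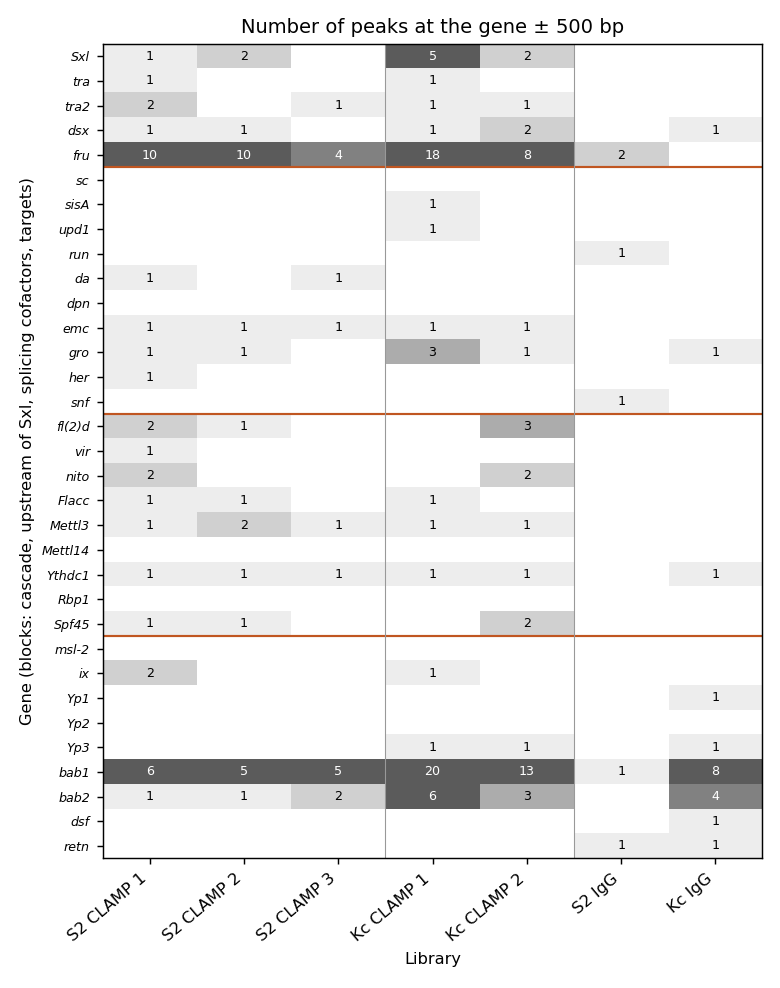
Number of peaks within each gene or 500 bp to either side in each of the 7 libraries, for the 5 cascade genes (top block) and 28 genes around them in 3 lists; darker cells hold more peaks, with the shade capped at 5. Only fru, emc, Mettl3, Ythdc1, bab1 and bab2 have peaks in all 5 CLAMP libraries, and the Kc peaks of bab1, bab2 and Yp3 stand beside Kc IgG peaks.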

How the data were processed

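Peak lists of 7 CUT&RUN libraries were used. Per the labels, 1 ng of DNA was amplified over 14 PCR cycles and sequenced as paired 25 bp reads. Bowtie2, FastQC, MACS2 and Trimmomatic, and dm6 as the build, are named per the submitters' processing notes; versions, duplicate handling and the control for calling are not given in the sources used here. Peaks were called on single libraries, since the authors deposited a list for each. The deposited fold (a ratio of summit signal to estimated background) and the deposited −log10 p-value and q-value belong to single summits. The deposited score, which follows the p-value, was left aside. Nothing says that replicates were separate cultures, so p-values measure only how these libraries vary, which may be technical.

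Summits listed for a common interval were treated as 1 peak, placed at the summit with the smallest p-value. A percentile by fold is the percent of the peaks of a list with a lower fold. Regions were the merged union of the 5 CLAMP lists. An overlap of 1 bp counted. Genes came from a RefSeq table (assembly Release 6 plus ISO1 MT), and all 5 cascade and 28 further genes had a single match. No genome sequence was used here. Lines were compared by exact permutation of the 5 libraries (10 arrangements), for every gene, with Benjamini-Hochberg adjustment; the functions were tested on simulated data. Percentages of genes of 20 kb or more were added after the data were seen, as was the grouping of summits that lie within 100 bp of the next. The 5 genes, the lists and the tests were chosen with earlier results of these data known. Named beside the 5 genes were list members with peaks in all 5 CLAMP libraries or in every library of 1 line and none of the other, and the 2 genes nearest to each cascade gene; sisA, upd1, sc, run and msl-2 were named after their values were seen. Alternatives were a q-value of 0.0001 or less, no flank or 2000 bp, 50% overlap, equally long lists of 5535 peaks, removal of peaks that overlap IgG peaks, leaving out each replicate, and pairing by replicate number. Computation used Python 3.11.15, numpy 2.4.6 and pandas 2.3.3.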

Additional observations from a re-analysis of the deposited data

How the results depend on the processing

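Of 149 recomputed values 6 changed sign, and among those that did not, several changed in size by more than 1.5 times. The sign of the mean difference at Sxl and in the number of genes held was the same under every setting tried, with -4.85 to -2.48 points and -2 to -0.5 genes when each library was left out. The separation of the Kc from the S2 libraries at Sxl was lost with a q-value of 0.0001 or less and with equally long lists (-2.26 points, Kc mean 4.77%). The tra difference of 0.385 points became 0 with a q-value of 0.0001 or less and with equally long lists, where no tra peak was left, and ran from -6.12 to 6.51 points when libraries were left out; the tra2 difference ran from -4.39 to 3.81, fru from -1.64 to 0.430, dsx from -0.471 to -0.0197, the density from -7.27 to -0.970 peaks per 100 kb and the gene-end share from 0.513 to 8.46. The gene-end share reversed to -0.609 points with no flank. Kc-only regions numbered 1 with a q-value of 0.0001 or less and 1 with equally long lists, and 2 to 11 when libraries were left out. Shared regions ran from 2 to 7 and S2-only regions from 0 to 1. The shares of all regions under these settings are not given, so the counts show only how the rule depends on the libraries. The S2 difference from IgG ran from 1.48 to 3.33 points when libraries were left out. The Kc difference from IgG fell to 3.01 points with the stricter q-value and 3.06 with equally long lists. With libraries of the same replicate number paired (replicate block), S2 replicate 3 had no Kc partner and dropped out. The differences were therefore those found without S2 replicate 3, and pairing itself changed only the p-values. In that setting fru reversed to 0.430 points, with p = 0.5 by exact permutation, the lowest that 2 pairs allow, and no other direction changed. The labels do not say that the numbers mark a shared culture. The deviations of same-numbered libraries correlated at -0.276 and -0.110 over 8532 genes. The 2 Kc libraries deviate from their mean by equal and opposite amounts, so the other Kc library gave 0.276 and 0.110. These correlations therefore cannot decide whether the numbers mark a pairing. Except where a setting leaves fewer peaks or libraries, the cause of a change was not tested. The depth of the libraries is unknown and limits every statement that a peak was missing.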
